A study of Homo sapiens with 7 samples.

Results

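The genes described here code for subunits of ion channels: the voltage-gated and related potassium channels (KCN genes), voltage-gated calcium channels (CACNA, CACNB and CACNG genes), voltage-gated sodium channels (SCN), the transient receptor potential channels of the C, M and V classes (TRP), the chloride channels and exchangers of the CLC family (CLCN) and the pacemaker channels (HCN). They were chosen by symbol alone, as every gene of the deposited table whose name has one of these roots, leaving out TRPV4 and TRPM7. That gave 89 of 14535 genes: 48 potassium, 14 calcium, 10 sodium, 8 TRP, 6 CLC and 3 HCN genes, all annotated as protein coding in GENCODE release 29. KCNK2, TRPV2 and TRPV6 were not analysed here.

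Expression was measured in A549 cells, 1 epithelial line from a human lung adenocarcinoma, in 7 libraries. In 3 of them (doxorubicin 1 to 3) the cells had received doxorubicin, a drug that poisons topoisomerase II and breaks DNA, at 100 nM for 24 h. In the other 4 (stretch 4 to 7) the treatment was cyclic stretch over the same 24 h, to 15% elongation at 15 cycles per min. In both groups cells were stained for β-galactosidase, a common marker of senescence, after 6 days, and RNA came from sorted positive cells. No untreated cells were analysed here, so every value below compares these treatments with each other. Whether the libraries of a group were separate cultures is not said in the labels, and p-values therefore reflect the scatter among these particular libraries, part or all of which may be technical.

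A voltage-gated channel is built around a pore-forming protein that opens or shuts when the membrane potential changes, and many channels carry auxiliary subunits that set how much of the pore protein reaches the membrane and how fast it opens and closes. Potassium channels hold the resting potential and bring an excited cell back to it, sodium and calcium channels carry inward current, TRP channels respond to lipids, temperature and other stimuli, and CLC proteins move chloride across the plasma membrane or across organelle membranes. Epithelial cells such as those of the lung fire no action potentials, and use potassium, chloride and calcium channels for fluid transport, volume control and signalling.

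Total counts were 2611739 to 4644250 in the doxorubicin libraries and 5636386 to 7419778 in the stretch libraries. The doxorubicin libraries differed among themselves. EIF4A2 alone took 16.1%, 30.6% and 10.8% of the counts in doxorubicin 1, 2 and 3, against 1.67 to 2.87% in stretch. Doxorubicin 3 correlated with stretch 4 (0.941, across genes) more closely than with doxorubicin 1 (0.882) or doxorubicin 2 (0.754). For that reason a number of differences below are also given without doxorubicin 2 or with doxorubicin 3 as the only doxorubicin library. All 7 markers of A549 and lung epithelium were present, with a summed level of 3288 to 6769 CPM (the count relative to the TMM-scaled library size) in doxorubicin and 2057 to 2396 CPM in stretch. On the doxorubicin side lay 5 of the 7, and KRT18 passed the test (log2 fold change -2.20, edgeR adjusted p = 0.0199). EPCAM went the other way, at 4.37, 0.865 and 4.54 CPM in doxorubicin and 10.2 to 14.6 CPM in stretch (log2 fold change 1.79, edgeR adjusted p = 0.0574). Of the markers of other cells, 0 of 8 muscle genes were in the table, and fibroblast markers summed to at most 18.2 CPM and endothelial markers to at most 3.01 CPM. Neuronal markers, of which 5 of 9 were in the table, summed to 130 to 179 CPM in doxorubicin and 92.3 to 239 CPM in stretch. Immune markers, of which 3 of 6 were in the table, summed to 47.8 to 105 CPM and 17.2 to 20.4 CPM, nearly all of it CD68, a lysosomal protein of macrophages and other cells, which was higher in doxorubicin (log2 fold change -2.02, edgeR adjusted p = 0.0158). The part of these cells in the results below was not tested.

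The channel genes were a thin slice of each library, of almost the same size everywhere as a share of all counts, EIF4A2 included. Together the 89 genes took 2130, 1561 and 2984 counts in doxorubicin 1, 2 and 3 and between 3620 and 4990 counts in each stretch library. As a share of all counts this was 0.0617%, 0.0598% and 0.0643% in doxorubicin and 0.0642%, 0.0673%, 0.0651% and 0.0664% in stretch 4 to 7. After TMM scaling, which sets the bulk of genes level between libraries, the summed level was instead 846, 1350 and 564 CPM in doxorubicin and 483, 534, 522 and 517 CPM in stretch. All doxorubicin libraries were then above the stretch libraries, doxorubicin 3 by little and doxorubicin 2 by the most. By family, the potassium channel genes summed to 355, 322 and 238 CPM in doxorubicin and 210 to 228 CPM in stretch. The TRP genes, at 69.5, 42.4 and 102 CPM against 57.4 to 83.4 CPM, and the CLC genes, at 43.7, 55.3 and 45 CPM against 42.7 to 54 CPM, overlapped between the groups. In bulk RNA, fewer cells of a kind and less RNA per cell cannot be told apart.

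**Figure D1:**
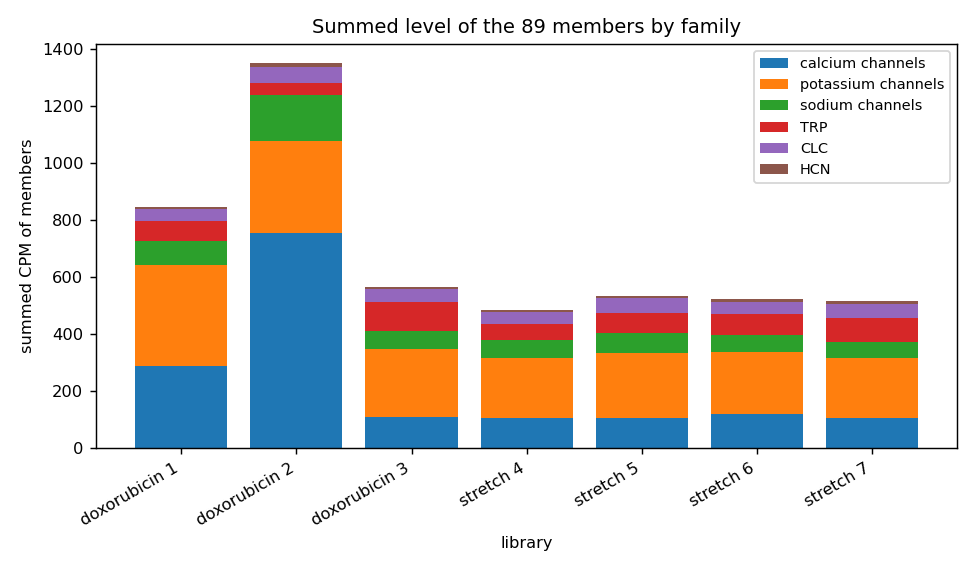
Summed CPM of the 89 channel genes (vertical axis) in each of the 7 libraries (horizontal axis), stacked by family, with TMM-scaled library sizes. The calcium channel genes reach 756 CPM in doxorubicin 2 and 288 CPM in doxorubicin 1, against 104 to 121 CPM in the stretch libraries.

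Much of the excess in those 2 doxorubicin libraries came from auxiliary calcium channel subunits. CACNB3 made up 20.2%, 34.7% and 7.37% of the summed member CPM in doxorubicin 1, 2 and 3 and 5.7 to 8.5% in stretch. CACNG4 made up 6.29%, 14.9% and 2.61% in doxorubicin and 0.718 to 0.902% in stretch. Without these 2 genes the sums were 622, 680 and 508 CPM in doxorubicin and 446 to 494 CPM in stretch.

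Gene by gene, the families showed few differences that passed the test. With edgeR's quasi-likelihood test, stretch minus doxorubicin and Benjamini-Hochberg adjusted over 11230 genes, 51 of the 89 channel genes had enough counts to be tested and 2 passed an adjusted p of 0.05: the calcium channel gamma subunit CACNG4 and the potassium channel KCNH3. Both were higher in doxorubicin. They are 3.92% of the tested members, beside 2.32% of all genes tested. Higher in doxorubicin were 1.97% of all genes, and higher in stretch 0.356%. No member passed higher in stretch by edgeR, DESeq2 or limma-voom, and 3 of 51 had an unadjusted p under 0.05 in that direction, beside 8.66% of all genes. In the doxorubicin direction 7 of 51 had an unadjusted p under 0.05, beside 14.5% of all genes.

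The members were spread evenly around no difference. The median log2 fold change was 0.04 over the 51 tested members and 0.02 over all genes, and 25 of the 51 lay on the doxorubicin side, beside 48.8% of all genes. Scaling by library totals alone moved the median to 0.71 for the members and to 0.71 for all genes, with 8 of 51 members on the doxorubicin side. The 2 groups did not overlap for 12 tested members, 5 higher in doxorubicin and 7 higher in stretch. That is 23.5% of the tested members, beside 21.4% of all genes, of which 9.88% were higher in doxorubicin and 11.5% in stretch.

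**Figure D2:**
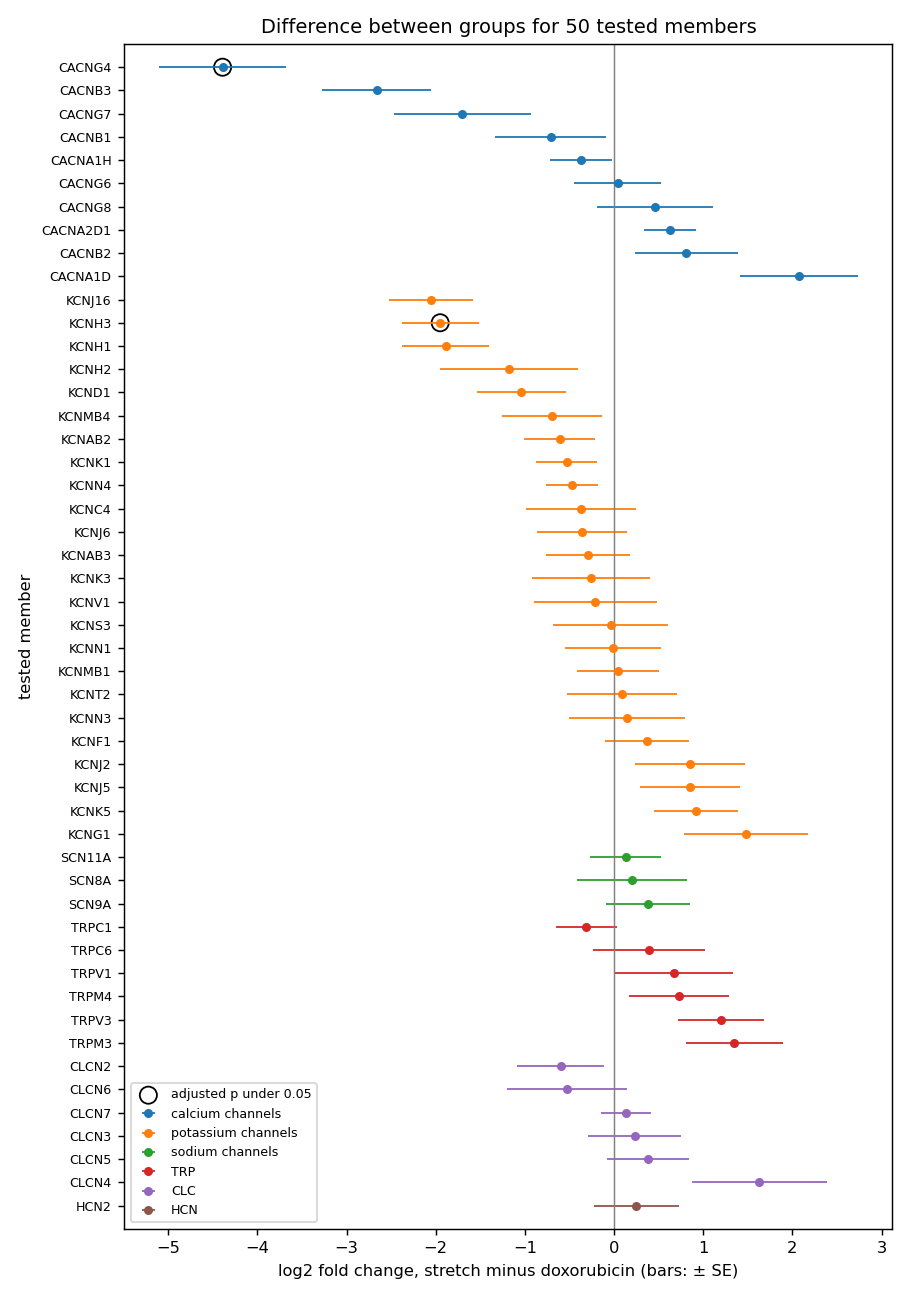
Log2 fold change, stretch minus doxorubicin (horizontal axis), of 50 tested channel genes, coloured by family, with bars for 1 SE and open circles around genes past an adjusted p of 0.05. CACNG4 at -4.39 and KCNH3 at -1.95 are circled, and CACNA1D at 2.07 is the point farthest to the right without passing the test.

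Among the auxiliary subunits of calcium channels, CACNG4 gave the widest gap of any tested member. It codes for a gamma subunit that is also known as a partner of AMPA-type glutamate receptors, and lies on chromosome 17 from 66964910 to 67033398 (GRCh38, GENCODE release 29, as for all gene positions here). Its level was 53.2, 201 and 14.7 CPM in doxorubicin 1, 2 and 3 and 3.47, 4.81, 4.11 and 4.3 CPM in stretch 4 to 7, from 134, 233 and 78 counts and from 26 to 45 counts. Every doxorubicin library was above every stretch library, and doxorubicin 3 was the nearest to them. The mean was 89.8 ± 98.6 CPM in doxorubicin (SD, n = 3) and 4.17 ± 0.555 CPM in stretch (SD, n = 4). CACNG4 was 20.9-fold higher in doxorubicin (log2 fold change -4.39, SE 0.71, edgeR adjusted p = 0.0165). Without doxorubicin 2 the log2 fold change was -2.98 (edgeR adjusted p = 0.00895), and with doxorubicin 3 as the only doxorubicin library it was -1.80 (SE 0.34, edgeR adjusted p = 0.0479). The call was lost without doxorubicin 1 and without each stretch library in turn (log2 fold change -4.65 to -4.32, edgeR adjusted p 0.0624 to 0.113), and with library totals alone (-3.17, edgeR adjusted p = 0.112). MAP2, the one neuronal marker past the test, stood at 33, 38 and 8.7 CPM in doxorubicin and 2 to 4.3 CPM in stretch. Its log2 fold change was -3.01 (edgeR adjusted p = 0.0194). Neuronal markers as a list did not share this direction: 2 of 5 tested lay on the doxorubicin side, with a median log2 fold change of 0.18. The part of MAP2 in the CACNG4 difference was not tested.

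The 3 other gamma subunit genes with a test lie close together on chromosome 19, and each had its own pattern. CACNG7 (53909335 to 53943941) stood at 3.97, 21.6 and 1.7 CPM in doxorubicin and 1.18 to 3.35 CPM in stretch, and its log2 fold change of -1.70 (SE 0.77, edgeR adjusted p = 0.215) was -0.15 without doxorubicin 2. CACNG8 (53963040 to 53990215) was at 0.794, 0 and 2.08 CPM in doxorubicin and 1.19 to 2.54 CPM in stretch. CACNG6 (53992288 to 54012669) was at 9.93, 17.3 and 4.35 CPM in doxorubicin and 5.34, 10.2, 11.8 and 12.7 CPM in stretch, with a log2 fold change of 0.04 (SE 0.49). None of the 3 passed the test.

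CACNB3 codes for a cytosolic beta subunit, which brings the pore-forming calcium channel protein to the plasma membrane, and lies on chromosome 12 from 48813794 to 48828941. It was measured at 171, 469 and 41.6 CPM in doxorubicin and 33.5, 34.9, 44.3 and 29.5 CPM in stretch. Doxorubicin 1 and 2 were far above all stretch libraries, while doxorubicin 3 lay inside the stretch range, so the groups overlapped. Its log2 fold change was -2.66 (SE 0.61), just short of the threshold by edgeR (adjusted p = 0.0509). Without doxorubicin 3 it was -3.13 (edgeR adjusted p = 0.000262), and with doxorubicin 3 alone it was -0.21 (edgeR adjusted p = 0.749). The other beta subunits CACNB1 and CACNB2 had log2 fold changes of -0.71 and 0.81, with edgeR adjusted p of 0.509 and 0.41.

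CACNA2D1 codes for an alpha2delta subunit, the extracellular partner that raises the number of calcium channels at the surface and the binding site of gabapentin. Its levels were 27, 17.3 and 25 CPM in doxorubicin and 36.8, 31.8, 39.4 and 36.5 CPM in stretch. The lowest stretch library was above the highest doxorubicin library. The log2 fold change of 0.63 (SE 0.29) did not pass the test (edgeR adjusted p = 0.219), and it ran from 0.48 to 1.30 over the other settings tried.

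Pore-forming calcium channel genes gave lower counts. CACNA1D, the pore of an L-type channel (chromosome 3, 53328963 to 53813733), had 1, 0 and 5 counts in doxorubicin and 24, 29, 26 and 15 counts in stretch. On the CPM scale this was 0.397, 0 and 0.945 in doxorubicin against 1.61 to 3.2 in stretch, with no overlap between the groups. Its log2 fold change was 2.07 (SE 0.66, edgeR adjusted p = 0.106). In doxorubicin 1 and 2, 3 counts correspond to 1.19 and 2.59 CPM, so levels such as those in stretch were near what these libraries could show. Without doxorubicin 3 the log2 fold change was 3.26 and passed the test (edgeR adjusted p = 0.0309). CACNA1H, a T-type pore, stood at 14.3, 16.4 and 7.94 CPM in doxorubicin and 8.65 to 10.5 CPM in stretch (log2 fold change -0.37, edgeR adjusted p = 0.536).

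**Figure D3:**
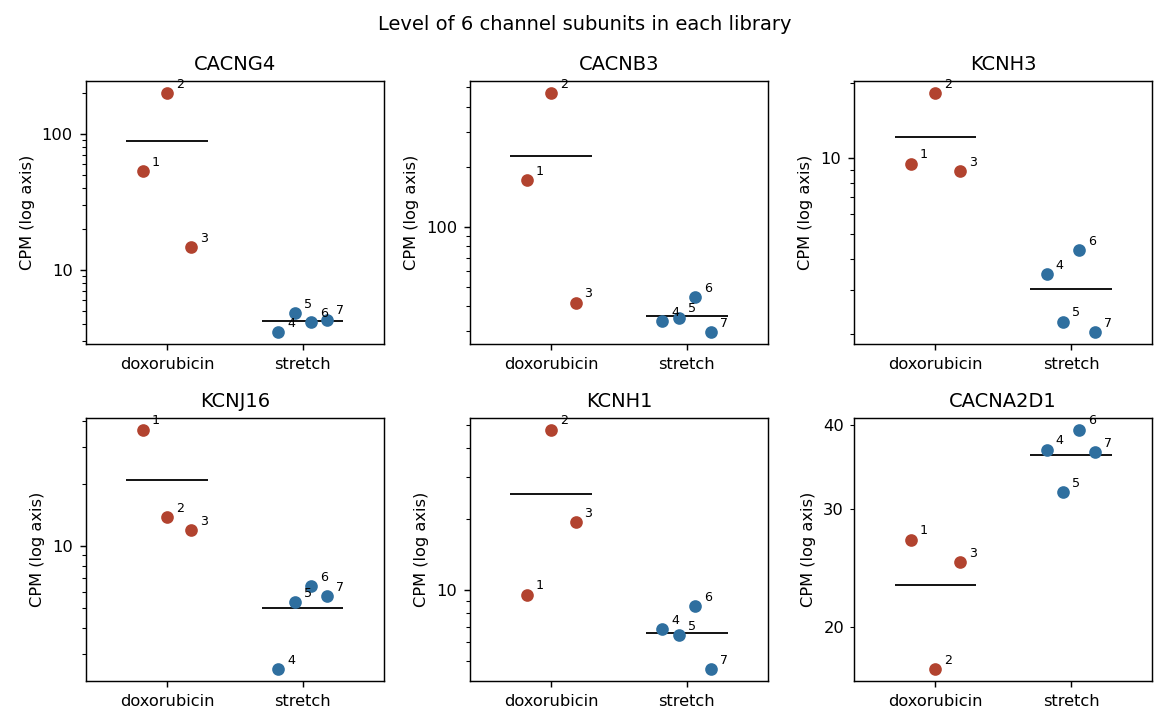
CPM (vertical log axis) of CACNG4, CACNB3, KCNH3, KCNJ16, KCNH1 and CACNA2D1 in every library, with a number for the library and a horizontal line at each group's mean. Doxorubicin 3 lies at 41.6 CPM for CACNB3, within the stretch range of 29.5 to 44.3 CPM, and above all stretch libraries for CACNG4, KCNH3, KCNJ16 and KCNH1.

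In the potassium family, 24 of 48 genes were tested, and 1 passed, higher in doxorubicin, beside 1.97% of all genes in that direction. The median log2 fold change of the 24 was -0.27, beside 0.02 over all genes. On the doxorubicin side lay 16 of the 24, beside 48.8% of all genes, and only 5 of 24 with library totals alone. The KCNH genes, which code for pores of the ether-a-go-go type, made up 3 of the 16. KCNH3 (chromosome 12, 49539157 to 49558308), a channel studied mainly in the forebrain, stood at 9.53, 18.2 and 8.88 CPM in doxorubicin and 3.47, 2.25, 4.32 and 2.04 CPM in stretch. All doxorubicin libraries were above all stretch libraries, and here doxorubicin 3 was close to doxorubicin 1. The counts behind these values were 24, 21 and 47 in doxorubicin and 26, 21, 40 and 19 in stretch. KCNH3 was 3.86-fold higher in doxorubicin (log2 fold change -1.95, SE 0.43, edgeR adjusted p = 0.0451). Among the 14 other settings in which it could be tested, it passed in 3, which were RLE factors, DESeq2 and without doxorubicin 3, with log2 fold changes from -2.19 to -1.12 and adjusted p from 0.00235 to 0.188 over all 14.

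KCNH1, a channel that many tumours express (chromosome 1, 210676823 to 211134180), stood at 9.53, 47.6 and 19.3 CPM in doxorubicin and 6.81, 6.42, 8.54 and 4.63 CPM in stretch. The groups did not overlap, with doxorubicin 1 close to stretch 6. Its log2 fold change of -1.89 (SE 0.49) missed the threshold (edgeR adjusted p = 0.0657), and was -1.15 without doxorubicin 2 and -1.53 with doxorubicin 3 alone. KCNH2, known as hERG, the channel of the cardiac repolarizing current, stood at 7.55, 7.78 and 0.378 CPM in doxorubicin and 1.18 to 2.4 CPM in stretch. Doxorubicin 3, with 2 counts of it, lay below every stretch library, and the difference did not pass the test (log2 fold change -1.18, edgeR adjusted p = 0.37). With doxorubicin 3 alone the KCNH2 value was 2.39, on the other side.

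Inward rectifiers pass potassium more easily into the cell than out. KCNJ16 (chromosome 17, 70053429 to 70135608), a rectifier subunit known from renal and other epithelia that works in pairs with related subunits, stood at 36.5, 13.8 and 11.9 CPM in doxorubicin and 2.54, 5.35, 6.38 and 5.7 CPM in stretch. Every doxorubicin library was above every stretch library, and doxorubicin 1 was the highest. The log2 fold change was -2.05 (SE 0.47), with an edgeR adjusted p of 0.0508. It passed without doxorubicin 2 (-2.23, edgeR adjusted p = 0.0366) and without doxorubicin 3 (-2.35, edgeR adjusted p = 0.00242). Without doxorubicin 1 it was -1.33 (edgeR adjusted p = 0.225), and without each stretch library in turn it did not pass (edgeR adjusted p 0.097 to 0.179). KCNJ2, KCNJ5 and KCNJ6 had log2 fold changes of 0.85, 0.85 and -0.36, none past the test.

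The calcium-activated channel KCNN4, the intermediate-conductance channel of epithelia and blood cells, stood at 106, 70 and 60.5 CPM in doxorubicin and 53.9, 62.3, 57.7 and 53.6 CPM in stretch. Doxorubicin 1 was the highest and doxorubicin 3 lay within the stretch range (log2 fold change -0.47, SE 0.29, edgeR adjusted p = 0.344, and -0.07 with doxorubicin 3 alone). KCNMB1, the beta subunit of the large-conductance calcium-activated channel, varied widely in doxorubicin, with 19.9, 7.78 and 38.6 CPM, and stood at 17.8 to 33.1 CPM in stretch (log2 fold change 0.04). Its pore gene KCNMA1 had 6, 1 and 0 counts in doxorubicin and 2 to 8 counts in stretch and was not tested.

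Leak channels of the K2P family keep the resting potential. KCNK5, an acid-sensitive member found in epithelia, stood at 2.38, 11.2 and 13.2 CPM in doxorubicin and 17.6, 17.7, 15.7 and 17.3 CPM in stretch. Doxorubicin 1 was well below the rest and all stretch libraries were close together (log2 fold change 0.92, SE 0.47, edgeR adjusted p = 0.263, and 0.47 without doxorubicin 1). KCNK1 was at 33, 27.7 and 19.5 CPM in doxorubicin and 11.2 to 21.5 CPM in stretch (log2 fold change -0.53, edgeR adjusted p = 0.367, and -0.07 with doxorubicin 3 alone). KCNAB2, a cytosolic beta subunit of voltage-gated potassium channels, was at 34.9, 53.6 and 15.7 CPM in doxorubicin and 17.6 to 27 CPM in stretch, so doxorubicin 3 was below every stretch library (log2 fold change -0.61, edgeR adjusted p = 0.382). Without doxorubicin 2 the KCNAB2 value was -0.15, and with doxorubicin 3 alone it was 0.52. The remaining 12 tested potassium genes had log2 fold changes between -1.04 (KCND1) and 1.48 (KCNG1), and none passed.

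Sequences before an annotated RefSeq start are shown for the subunits that came next to the threshold, to let a reader compare their base composition, and CACNA1D is added as the gene with the opposite pattern. Each is 200 bases long, from 250 to 51 bases before the RefSeq start (GRCh38.p14), read 5′ to 3′ on the strand of the gene, with capitals marking GC boxes (GGGCGG on either strand). RefSeq's table held promoters for 68 of the 89 genes. For CACNB3 and KCNJ16 it lists 3 starts each, of which the first is shown. CACNG4 and KCNH3 had no entry. The windows of CACNB3, KCNJ16 and CACNA1D lie inside the GENCODE gene, after its first annotated base and outside its exons, and only that of KCNH1 lies before the whole gene.
CACNB3, chr12:48814230-48814429, plus strand: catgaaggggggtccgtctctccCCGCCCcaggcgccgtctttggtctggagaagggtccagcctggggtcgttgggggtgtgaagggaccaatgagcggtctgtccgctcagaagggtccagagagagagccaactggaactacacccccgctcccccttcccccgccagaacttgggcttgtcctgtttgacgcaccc
KCNJ16, chr17:70074975-70075174, plus strand: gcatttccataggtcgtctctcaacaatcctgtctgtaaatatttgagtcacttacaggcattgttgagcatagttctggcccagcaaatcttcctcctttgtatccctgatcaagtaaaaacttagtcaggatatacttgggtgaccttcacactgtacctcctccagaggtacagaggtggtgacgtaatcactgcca
KCNH1, chr1:211134199-211134398, minus strand: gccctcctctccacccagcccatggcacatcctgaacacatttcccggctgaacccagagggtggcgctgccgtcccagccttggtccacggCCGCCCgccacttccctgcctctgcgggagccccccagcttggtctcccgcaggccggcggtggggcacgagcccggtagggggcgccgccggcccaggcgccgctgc
CACNA1D, chr3:53494361-53494560, plus strand: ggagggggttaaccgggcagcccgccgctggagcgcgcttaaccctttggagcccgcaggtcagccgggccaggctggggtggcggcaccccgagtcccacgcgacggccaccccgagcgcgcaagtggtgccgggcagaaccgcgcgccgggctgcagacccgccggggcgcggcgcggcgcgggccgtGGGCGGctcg

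These windows differed in base composition. The KCNJ16 window had a GC content of 44.5%, below the median of 57.5% over all windows of the table, with 2 CG dinucleotides and no GC box. CACNB3 stood at 64.5% with 10 CG, KCNH1 at 74.5% with 17 CG and CACNA1D at 79.5% with 31 CG, and each of these 3 held 1 GC box. A GC box was found in 46.2% of the 117 windows of the channel genes and in 34.9% of all windows of the same length. The core of the interferon-stimulated response element was in 3.42% of the channel windows and 2.39% of all, and the cyclic AMP response element in 0 of 117 and in 0.952% of all. These are matches of letters on both strands, and motifs may overlap.

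Sodium channel pore genes were present at low counts in both groups, and the 3 described here did not pass the test (edgeR adjusted p 0.64 to 0.87). SCN9A, the pore of a channel of pain-sensing neurons, stood at 4.37, 1.73 and 8.7 CPM in doxorubicin and 5.07 to 8.54 CPM in stretch, and SCN11A at 6.35, 2.59 and 5.1 CPM and 4.43 to 6.41 CPM. Doxorubicin 2 was the lowest library for both. Their log2 fold changes were 0.38 (SE 0.47) and 0.13 (SE 0.40). SCN8A, a pore gene of central neurons, stood at 0.794, 2.59 and 7.18 CPM in doxorubicin and 7.08, 3.85, 2.49 and 4.84 CPM in stretch. Doxorubicin 3 was its highest library and doxorubicin 1 its lowest (log2 fold change 0.20, SE 0.62).

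In the TRP family 6 of 8 genes were tested and none passed by edgeR, DESeq2 or limma-voom. By edgeR 2 had an unadjusted p under 0.05, beside 23.2% of all genes. The median log2 fold change was 0.70, and 5 of 6 lay on the stretch side, beside 26 of all 51 tested members. With library totals alone, where the median of all genes was 0.71, 6 of 6 did, beside 43 of 51 members. TRPM3, a channel opened by heat and by the steroid pregnenolone sulfate, stood at 3.18, 0 and 3.4 CPM in doxorubicin and 7.61, 5.99, 6.27 and 6.99 CPM in stretch. All stretch libraries were above all doxorubicin libraries (log2 fold change 1.35, SE 0.54, edgeR adjusted p = 0.164). TRPV3, a warmth-activated channel of skin, also did not overlap between the groups, with 1.19, 1.73 and 3.02 CPM against 3.87 to 6.56 CPM (log2 fold change 1.20, edgeR adjusted p = 0.168). Without doxorubicin 3 the TRPV3 value was 1.86 and passed (edgeR adjusted p = 0.0376), beside 16% of all genes in that direction. Only 3 and 2 counts of it in doxorubicin 1 and 2 then stood for that group.

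TRPC1, a channel linked to calcium entry after store emptying, was the exception on the doxorubicin side. Its levels were 56.4, 37.2 and 87.1 CPM in doxorubicin and 35.2, 49.1, 51.5 and 60.9 CPM in stretch. Here doxorubicin 3 was the highest library and doxorubicin 2 among the lowest, the reverse of the order for CACNB3 (log2 fold change -0.31, SE 0.34, edgeR adjusted p = 0.613). TRPM4, a calcium-activated cation channel, stood at 4.37, 0 and 4.16 CPM in doxorubicin and 4.17 to 6.81 CPM in stretch (log2 fold change 0.73, edgeR adjusted p = 0.451).

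All 6 CLC genes were tested and none passed by edgeR, DESeq2 or limma-voom. By edgeR none had an unadjusted p under 0.05, and by DESeq2 and by limma-voom 1 did. CLCN7, the chloride-proton exchanger of lysosomes, varied little: it stood at 23.8, 23.3 and 21.2 CPM in doxorubicin and 23.5, 28.6, 20.3 and 27.1 CPM in stretch. The groups overlapped fully (log2 fold change 0.13, SE 0.28, edgeR adjusted p = 0.811). CLCN6, an exchanger of late endosomes, stood at 9.53, 10.4 and 10 CPM in doxorubicin and 0.534, 9.09, 8.54 and 9.25 CPM in stretch. It had 4 counts in stretch 4 and 79 to 86 in each other stretch library, and its log2 fold change of -0.53 (SE 0.67, edgeR adjusted p = 0.655) was -0.15 without stretch 4.

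Among the other exchangers, CLCN4 had no counts in doxorubicin 1 and 2, and stood at 2.08 CPM in doxorubicin 3 and 2.4 to 4.52 CPM in stretch. Its log2 fold change was 1.63 (SE 0.76, edgeR adjusted p = 0.226). CLCN2, a plasma membrane chloride channel, stood at 6.35, 15.6 and 4.91 CPM against 3.78 to 8.54 CPM, and CLCN3, an endosomal exchanger, at 1.59, 4.32 and 3.78 CPM against 1.94 to 5.34 CPM. Both overlapped between groups, with log2 fold changes of -0.60 and 0.23. Without doxorubicin 2 the CLCN2 value was -0.03.

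Of the pacemaker channel genes, which carry an inward current on hyperpolarization, only HCN2 was tested. It stood at 4.37, 9.51 and 3.59 CPM in doxorubicin and 3.47, 5.67, 8.22 and 7.85 CPM in stretch (log2 fold change 0.25, SE 0.48, edgeR adjusted p = 0.781). HCN4, the main pacemaker gene of the sinus node, had 2, 4 and 5 counts in doxorubicin and 0, 0, 0 and 2 in stretch, too few for the filter of the main test. By DESeq2, which tested it, its log2 fold change was -4.77 (DESeq2 adjusted p = 0.0156), where 6.94% of all genes passed in that direction. By edgeR with no filter on low counts, HCN4 did not pass: 2 of 89 members did, CACNG4 and CACNB3. HCN3 had 1, 1 and 7 counts in doxorubicin and 4 to 16 counts in stretch.

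The 38 members that were not tested had between 3 and 73 counts each over all 7 libraries. The cardiac and epithelial pore gene KCNQ1 was one of them, with 1, 0 and 6 counts in doxorubicin and 3, 5, 13 and 10 in stretch. Another, KCNJ15, had 22 counts in doxorubicin 3 and 30 in stretch 4 and at most 9 in each other library. Fewer members were seen in doxorubicin 1 and 2: at least 3 counts were found for 58, 35 and 67 members in doxorubicin 1, 2 and 3 and for 66, 74, 70 and 68 in stretch 4 to 7. Thinned to the total count of doxorubicin 2, the expected numbers were 53.3 and 56.2 in doxorubicin 1 and 3 and 55.8 to 58.9 in stretch. Equal totals do not give equal depth for these genes, since EIF4A2 took more of doxorubicin 2 than of any other library. In doxorubicin 2, 30 of 89 members were at 0. For a member at 0, the floor of 3 counts in that library was 2.59 CPM. These limits cover counting error only, and amplified reads are not independent molecules.

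**Figure D4:**
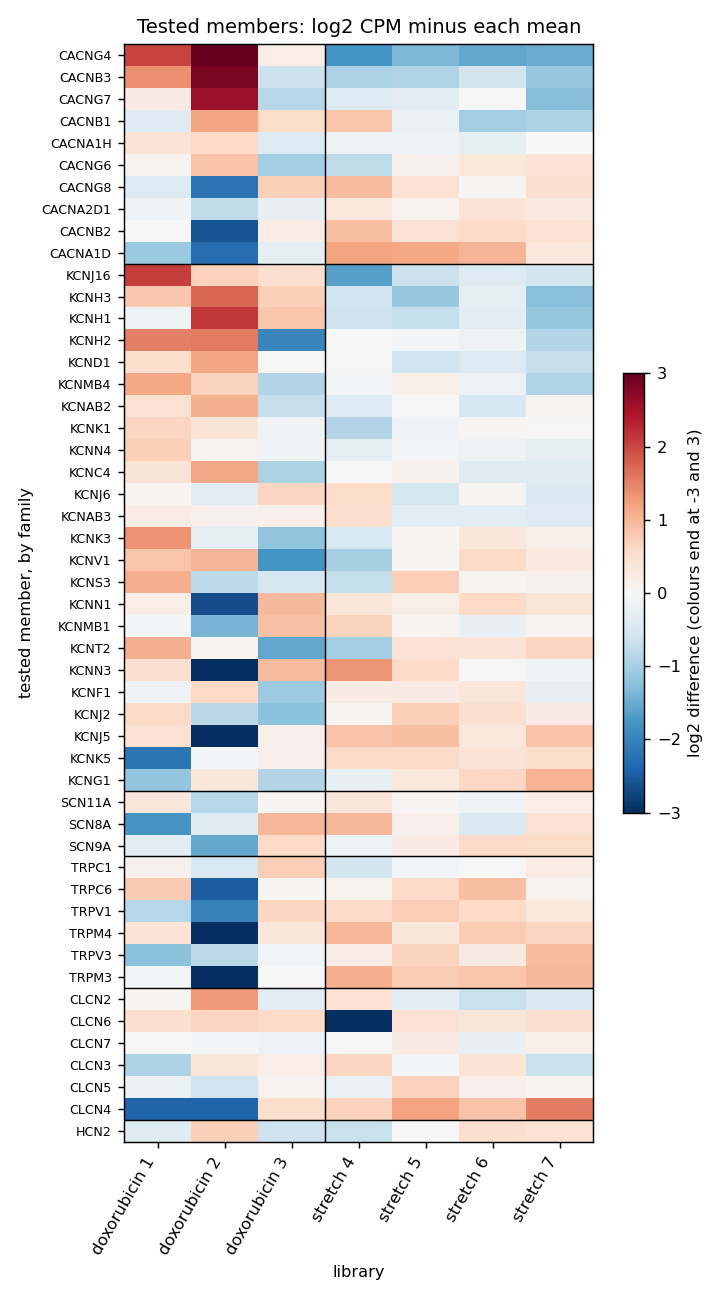
Log2 CPM of 50 tested members (vertical axis, by family) minus each member's mean over the 7 libraries (horizontal axis), with the colours ending at -3 and 3. Doxorubicin 2 holds dark colours of both signs, and CLCN6 has its low value of 0.534 CPM in stretch 4.

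Doxorubicin 2 was the highest of the 7 libraries for 18 of the 51 tested members, or 35.3%, beside 28.4% of all genes. The level in doxorubicin 3 fell within the stretch range for 19 of 51 members, or 37.3%, beside 43.3% of all genes. The number of members past the test depended on these libraries. Without doxorubicin 3, 13 of 54 members passed by edgeR, beside 32.2% of all genes. Among them CACNB3, CACNG4, CACNG7, KCNAB2, KCNH1, KCNH2, KCNH3 and KCNJ16 were higher in doxorubicin and CACNA1D, CLCN4, KCNK5 and TRPV3 higher in stretch. With doxorubicin 3 as the only doxorubicin library, which is assumed to vary as the stretch libraries do, CACNG4 alone passed, 1 of 61 tested, beside 0.802% of all genes. Without doxorubicin 2, CACNG4 and KCNJ16 passed of 57, beside 2.47% of all genes. Without doxorubicin 1 or any 1 stretch library none passed, beside 0.197% of all genes without doxorubicin 1 and 0.359%, 0.146%, 0.109% and 0.109% without stretch 4, 5, 6 and 7. With all libraries, DESeq2 called 6 of 79 members, beside 10% of all genes, and limma-voom 1 of 51, beside 1.66%. By edgeR, 3 of 51 passed with RLE factors (2.26% of all genes), 1 of 51 with upper-quartile factors (1.84%), 0 of 51 with library totals alone (0.116%), 2 of 89 with no filter (1.96%) and 1 of 15 at a mean of at least 10 CPM (1.91%).

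**Figure D5:**
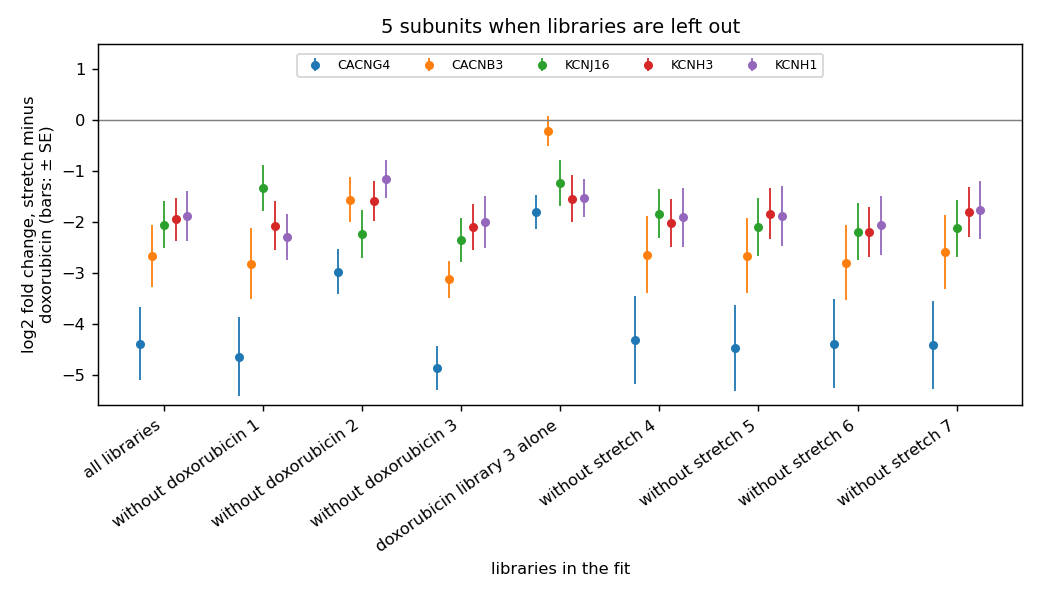
Log2 fold change, stretch minus doxorubicin (vertical axis, bars for 1 SE), of 5 subunits with all libraries, with each library left out, and with doxorubicin 3 as the only doxorubicin library (horizontal axis). CACNB3 moves from -2.66 to -0.21 with doxorubicin 3 alone, while CACNG4 stays at or below -1.80 in every fit drawn.

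Genes whose products act on or beside these channels were examined in the same test. The regulators of voltage-gated channels (14 of 29 listed genes tested) had a median log2 fold change of -0.46. It was 0.38 with library totals alone (0.71 for all genes) and 0.01 over the 8 genes with a mean of at least 10 CPM. By DESeq2 3 passed, all higher in doxorubicin (6.94% of all genes). Without doxorubicin 3, edgeR called 7 higher in doxorubicin (16.2%) and 3 higher in stretch (16%). With all libraries, edgeR called 1, higher in doxorubicin, beside 1.97% of all genes in that direction. That gene was RRAD, a small GTPase that binds beta subunits and reduces calcium current. RRAD stood at 3.57, 8.65 and 2.27 CPM in doxorubicin and 0.267, 0.428, 0.216 and 0.108 CPM in stretch, from 9, 10 and 12 counts and from 1 to 4 counts. The groups did not overlap, and RRAD was higher in doxorubicin (log2 fold change -3.95, SE 0.68, edgeR adjusted p = 0.02), with -3.07 for doxorubicin 3 alone. The RRAD call was lost in 7 of the 14 other settings that tested it: library totals alone, doxorubicin 3 alone, without doxorubicin 1 and without each stretch library (edgeR adjusted p 0.0605 to 0.14). STAC, an adaptor of L-type channels, stood at 8.34, 8.65 and 3.4 CPM against 1.72 to 2.57 CPM and did not pass (log2 fold change -1.64, edgeR adjusted p = 0.0753, and -0.71 with doxorubicin 3 alone).

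Among genes of calcium stores and store-operated entry, 1 of 16 tested passed, higher in doxorubicin, beside 1.97% of all genes in that direction. In the stretch direction none passed in this main fit. By DESeq2 3 did (3.09% of all genes), with upper-quartile factors 1 (0.294%) and without doxorubicin 2, 2 (0.444%). Without doxorubicin 3, 4 passed higher in stretch and 5 higher in doxorubicin, beside 16% and 16.2% of all genes. ATP2B4, a plasma membrane calcium pump, stood at 120, 263 and 41.8 CPM in doxorubicin and 24.3, 20.6, 33.2 and 22.9 CPM in stretch, with all doxorubicin libraries above the stretch libraries (log2 fold change -2.47, SE 0.51, edgeR adjusted p = 0.0361). With doxorubicin 3 alone the log2 fold change was -0.71. The ATP2B4 call was lost in 8 of 15 other settings: library totals alone, limma-voom, doxorubicin 3 alone, without doxorubicin 1 and without each stretch library (adjusted p up to 0.293). ATP2A2, the pump that refills the endoplasmic reticulum with calcium, stood at 35.3, 36.3 and 31 CPM in doxorubicin and 63.1, 83.5, 80.1 and 77.2 CPM in stretch. The groups lay well apart with little spread in either, yet the log2 fold change of 1.16 (SE 0.28) missed the threshold (edgeR adjusted p = 0.0547). It passed without doxorubicin 2 (edgeR adjusted p = 0.0455) and by DESeq2 (DESeq2 adjusted p = 0.000437), and over the 15 other settings its log2 fold change ran from 1.10 to 1.91. MCU, the pore of the mitochondrial calcium uniporter, stood at 17.1, 6.05 and 21.9 CPM against 37.9 to 59.9 CPM (log2 fold change 1.67, edgeR adjusted p = 0.0566).

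Of 10 organelle cation channel genes, all tested, 1 passed, higher in doxorubicin, beside 1.97% of all genes in that direction. Most of the list lay on the other side, with 7 of 10 on the stretch side and 3 on the doxorubicin side. The median log2 fold change of the list was 0.52, beside 0.02 over all genes. TMEM38A, a potassium-permeable channel of the endoplasmic reticulum that balances calcium release, stood at 49.2, 75.2 and 12.9 CPM in doxorubicin and 6.01, 7.7, 9.08 and 7.32 CPM in stretch. All doxorubicin libraries were above the stretch libraries (log2 fold change -2.57, SE 0.50, edgeR adjusted p = 0.0295), with -0.75 for doxorubicin 3 alone. The TMEM38A call was lost in the same 8 settings as that of ATP2B4 (adjusted p up to 0.319). MCOLN1, the lysosomal calcium release channel, stood at 58, 119 and 29.9 CPM against 17.8 to 23.5 CPM and did not pass (log2 fold change -1.75, edgeR adjusted p = 0.0547). The MCOLN1 value was -1.11 without doxorubicin 2 and -0.55 with doxorubicin 3 alone.

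With all libraries, the other lists gave no call by edgeR or limma-voom. Without doxorubicin 3, edgeR called 4 genes of other anion channels higher in doxorubicin and 2 higher in stretch. In that fit it called 3 and 0 sodium-potassium pump genes, and 3 and 1 genes of the REST list. The shares of all genes there were 16.2% and 16%. For comparison, 23.2% of all genes had an unadjusted p under 0.05 by edgeR and 10% passed by DESeq2. Among other anion channels and CLC partners, 16 genes were tested, 9 on the doxorubicin side (4 with library totals alone), with 4 at an unadjusted p under 0.05 and 3 past the threshold by DESeq2. For epithelial, acid-sensing and leak sodium channels the numbers were 5 tested, 1 at an unadjusted p under 0.05 and 0 by DESeq2. For the sodium-potassium pump they were 7 tested, 2 and 0. For the repressor of neuronal genes REST and its partners, which hold many channel genes silent outside neurons, they were 10 tested, 1 and 1, with a median log2 fold change of -0.08.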

How the data were processed

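Gene expression was compared between 3 doxorubicin and 4 stretch libraries, grouped and numbered by the sample titles. Per the labels' protocols, Trizol RNA was amplified with gene-specific primers (Ion AmpliSeq human transcriptome kit), without molecular identifiers. The authors deposited 1 table of whole numbers, read here as rounded estimated counts per gene, not normalized between libraries. The tools named in the submitters' processing notes are Salmon 1.9 and fastp 0.20.1, and the build is GRCh38. The annotation they used is not given in the sources used here. Each of the 14647 rows has at least 1 count in at least 3 libraries. Rows of the 64 symbols that occur more than once were summed (no channel gene is among them), and a row name that is no gene, at most 0.00861% of a library, was left out.

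Genes kept by filterByExpr were scaled by TMM factors (0.443 to 1.33) and tested with edgeR 4.0.16 (R 4.3.3, with limma 3.58.1): edgeR's quasi-likelihood F-test with robust estimation, stretch minus doxorubicin, Benjamini-Hochberg adjusted over 11230 genes, threshold 0.05. Negative log2 fold changes are higher in doxorubicin, and each SE was derived from the fold change and its F value. The fit was tested on simulated data. Of the 21 pairs of libraries the highest correlation was 0.978. Alternatives were DESeq2 1.42.0 or limma-voom as the test, scaling by upper-quartile factors, RLE factors or library totals alone, no filter or a minimum mean of 10 CPM, and fits without each library or with doxorubicin 3 alone.

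The genes and the lists of partners and markers were chosen with earlier results of these data known, so they are no independent support. Named by rule were members past the threshold, the 3 with the highest mean CPM in each family, the 5 largest non-overlapping differences in each direction at a mean of at least 5 CPM, and 18 fixed genes, 15 of them in the table. Named after their values were seen were CACNA1D, CACNA1H, CACNB1, CACNB2, CACNG6, CACNG7, CACNG8, KCND1, KCNG1, KCNJ2, KCNJ5, KCNJ6, KCNJ15, SCN8A, TRPV3, CLCN4 and the partner genes. The same holds for CACNA1I, KCNA7, KCNC2, KCNJ8 and KCNT2. No test compared amplicon counts between genes, though the sums, shares and rankings by mean CPM set them side by side. Whether equal counts mean equal RNA across genes was not tested. Results of some genes are not reported here, though the genes stay in the fit and in the sums and counts over members.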

Additional observations from a re-analysis of the deposited data

Results flagged for a closer look

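A sample far from the others of its group was found in 3 of the 33 group and member combinations examined, all in stretch, by a gap to the nearest sample that is above Dixon's critical value as a share of the group's range. Chance alone gives about 1 in 20. CLCN6 was at 0.534 CPM in stretch 4, below the other stretch libraries by 0.918 of the range. HCN4 was at 0.215 CPM in stretch 7, which is 2 counts, and at 0 in the other stretch libraries. KCNK5 was lowest in stretch 6, at 15.7 CPM, within a narrow range that ends at 17.7 CPM.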

How the results depend on the processing

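The 2 members past the threshold became 1 with upper-quartile factors, 0 with library totals alone, 1 with a mean of at least 10 CPM, 6 with DESeq2, 1 with limma-voom and 1 with doxorubicin 3 alone. With each library left out in turn the count ran from 0 to 13, from 0 to 9 higher in doxorubicin and from 0 to 4 higher in stretch. Of all genes, 261 passed, against 13 with library totals alone, 143 with a mean of at least 10 CPM, 1315 with DESeq2, 99 with doxorubicin 3 alone and 12 to 3736 with a library left out. The members' median log2 fold change of 0.04 was 0.71 with library totals alone and -0.44 over the 15 members with a mean of at least 10 CPM.

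The 22 named and tested members were refitted in up to 15 settings each. Of 320 values, 18 changed sign. With library totals alone, under which the median of all genes was 0.71, these were CLCN2 0.30, CLCN6 0.17, KCNAB2 0.35, KCNK1 0.26, KCNN4 0.30 and TRPC1 0.26. With doxorubicin 3 alone they were CLCN2 0.15, CLCN3 -0.01, KCNAB2 0.52, KCNH2 2.39, KCNMB1 -0.69 and SCN9A -0.26. With 1 library left out they were CLCN3 -0.09 and KCNMB1 -0.04 (without doxorubicin 1), KCNMB1 -0.32 and SCN11A -0.06 (without doxorubicin 2), TRPC1 0.08 (without doxorubicin 3) and KCNMB1 -0.17 (without stretch 4). Over the fits with 1 library left out, CLCN3 ran from -0.09 to 0.54, KCNMB1 from -0.32 to 0.73 and TRPC1 from -0.54 to 0.08. CACNG4, CACNB3, KCNH1, KCNH3 and KCNJ16 stayed on the doxorubicin side in every setting that tested them, and CACNA2D1 on the stretch side. Apart from the smaller number of genes or libraries in some fits, the cause was not tested. No paired analysis was possible because the groups share no replicate number.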

Other observations

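A few potassium channel genes with too few counts for the filter of the main test are given by their counts. KCNC2, which codes for a fast voltage-gated potassium channel pore, had 6, 0 and 10 counts in doxorubicin and 6, 0, 0 and 0 in stretch. KCNJ8, the rectifier pore of a vascular ATP-sensitive channel, had 8, 0 and 11 counts in doxorubicin and 2, 2, 5 and 4 in stretch. KCNA7, a voltage-gated pore of muscle, had 0, 0 and 2 counts in doxorubicin and 6, 5, 6 and 5 in stretch. These genes were picked after their values were seen. With no filter on low counts their log2 fold changes were -2.99, -2.30 and 1.58, with edgeR adjusted p of 0.183, 0.12 and 0.374, so none passed.

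The calcium channel pore gene CACNA1I had 3, 2 and 3 counts in doxorubicin and 0, 0, 1 and 2 in stretch, at lower depth in doxorubicin. The sodium-activated potassium channel gene KCNT2 stood at 14.3, 6.92 and 2.08 CPM in doxorubicin and 3.07, 9.2, 8.97 and 10.5 CPM in stretch, so the 2 groups spanned nearly the same range (log2 fold change 0.09, SE 0.62, edgeR adjusted p = 0.947).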
